A study of Mus musculus with 12 samples.

Results

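The comparison described here is that of cerebral vessels taken 30 min after an intraperitoneal injection of lipopolysaccharide (LPS), a component of the outer membrane of Gram-negative bacteria, with vessels of mice that received phosphate-buffered saline (PBS). The libraries were chosen by their labels, 3 labelled LPS 30 min and 3 labelled PBS, which makes 6 of the 12 libraries of the study. The other 6 libraries, from vessels taken earlier (15 min) or later (4 h), were used to place the changes in time and to share the estimate of spread. The mice were wild type, strain C57BL6, and by the study's methods 8 to 12 weeks old, and LPS was given at 10 mg/kg. Each library is labelled as a pool of the vessels of 1 male and 1 female mouse. By these labels each group of 3 libraries draws on 6 mice. The p-values measure the spread between the libraries of a group. Between 2 libraries of a group the variance was 2.50 to 2.87 times that of counting alone (median over genes). Whether this spread equals that between independent pools of mice was not tested. The vessels were separated from the tissue of the perfused forebrain by density centrifugation and filtering. Endothelial cells, pericytes, smooth muscle cells, and cells attached to the vessel wall were therefore sequenced together, and fewer cells of a type and less RNA per cell cannot be told apart. The sources used here do not state when the PBS mice were killed or at what time of day any mouse was injected.

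LPS is sensed by TLR4 with its partners CD14 and MD-2, and circulating cytokines such as TNF and IL-1 act on vessels through receptors of their own. These signals converge on NF-κB, which is held in the cytoplasm by IκB proteins, and on MAP kinases. Immediate early genes are transcribed by factors already present in the cell, without new protein synthesis, and they encode transcription factors, feedback inhibitors, and proteins that destabilize mRNA. In activated endothelium, selectins and immunoglobulin-type adhesion molecules capture leukocytes, and chemokines attract them.

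Depth was 21.5 to 25.5 M estimated fragments in the 6 libraries. Levels are in CPM, which divides each count by the library total and by a TMM factor for composition, and stand in the order of libraries 1, 2, and 3. CPM is not corrected for transcript length and serves to compare libraries, not genes. Changes are log2 fold changes of LPS 30 min over PBS ± their standard error (SE). A gene was called changed when edgeR, testing for a change beyond 0.58 on the log2 scale (1.5-fold), gave a Benjamini-Hochberg adjusted p below 0.05 over the 19150 genes tested.

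Several transcripts separated the groups in ways that the labels do not describe, and their part in the results was not tested. All libraries are labelled as pools of a male and a female mouse, yet Xist, the RNA that coats the inactive X chromosome, was at 296, 254, and 371 CPM in PBS and at 11.6, 15.5, and 20.9 CPM at 30 min. The summed level of the 4 Y-linked genes measured was 113 to 151 CPM in PBS and 225 to 227 CPM at 30 min. The mix of male and female RNA, as read from these genes, thus differed between the groups and cannot be told apart from the treatment. The summed level of 15 skeletal muscle markers was 20.1 to 26.4 CPM in PBS and 253 to 271 CPM at 30 min. That of 10 erythrocyte and platelet markers was 2350.4 to 2527 CPM in PBS and 4472 to 4698 CPM at 30 min. Globin genes of erythrocytes held most of this second sum. Of its 10 markers 4 were higher, 5 did not pass, and 1, the platelet gene Ppbp, was called lower. The 12 neutrophil markers summed to 7.53 to 9.66 CPM in PBS and 9.25 to 11.4 CPM at 30 min, and Ly6g, Mpo, and Elane did not pass the filter on low counts. Mitochondrial transcripts held 6.36% to 6.52% of fragments in PBS and 7.65% to 8.04% at 30 min, and the 10 most abundant genes held 7.50% to 7.65% and 8.84% to 9.23%, without overlap in either case.

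At 30 min the change in the vessels was mostly upward. Of the 19150 genes, 884 (4.62%) were called: 728 (3.8%) were higher and 156 (0.815%) were lower than in PBS. All counts of called genes given below for gene families are to be read beside these shares. The rises were also the larger changes, with 67 of the 728 above 4 on the log2 scale and 21 above 6, against 6 and 3 of the 156 falls. The median size, without sign, was 1.39 for rises and 1.21 for falls. With sign, the median change over all genes tested was -0.01, which reflects the scaling and is not a size. Rises were found at every level of expression, from 142 of the 3173 genes under 1 CPM in PBS to 77 of the 1744 genes over 100 CPM, and so included genes abundant at rest. Of the rises 660 and of the falls 112 were protein-coding genes, out of 15795 tested. Every LPS library lay beyond every PBS library for 727 of the 728 rises and 155 of the 156 falls, which held for 46.7% of all genes tested. The balance depends on scaling. With library totals alone in place of TMM factors, the median over all genes moved to -0.17 and the calls to 543 higher and 350 lower, which is 60.8% higher instead of 82.4%. At an unadjusted p below 0.05, 1092 genes were higher and 506 lower.

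**Figure D1:**
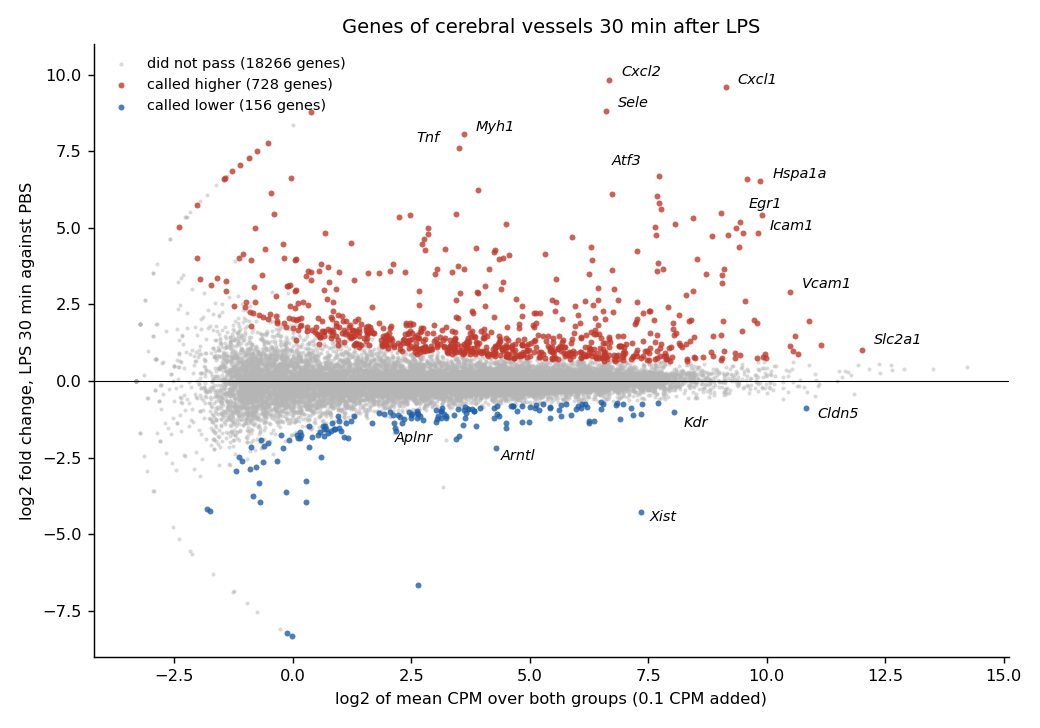
Each point is 1 of the 19150 genes tested, with the mean level of the PBS and LPS 30 min libraries on the x axis (CPM, log scale) and the log2 fold change of LPS 30 min over PBS on the y axis. Red points are the 728 genes called higher and blue points the 156 called lower, and the rises reach farther from 0 than the falls.

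The transcription factors of the AP-1, Egr, and Nr4a families rose together. Of their tested members 18 of 18 were called higher. The median of the list was 3.79, and the largest adjusted p in edgeR was 5.86e-05. Atf3, a stress-induced partner of AP-1, was at 3.97, 4.32, and 3.74 CPM in PBS and at 425, 410.0, and 424 CPM at 30 min, a change of 6.70 ± 0.07. Fosb rose from 3.56, 2.60, and 2.98 CPM to 211, 212, and 209.6 CPM, a change of 6.12 ± 0.10. For both genes the lowest LPS library stood far above the highest PBS library, and the LPS libraries lay close together. Fos rose by 5.63 ± 0.06, from 8.58, 8.87, and 8.32 CPM to 441, 431, and 406 CPM. Egr1, a zinc finger factor induced through serum response elements, rose by 5.20 ± 0.03, and the orphan nuclear receptor gene Nr4a1 by 5.01 ± 0.03. The smallest changes of the list were those of Srf (0.85 ± 0.05), whose product drives several of these genes, and Mafk (0.91 ± 0.04).

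The other early response genes and the feedback inhibitors followed. Of 21 early response genes of other kinds, 16 of 21 were called higher, with a median of 1.53. Ccn1, a secreted matrix protein of the CCN family, rose by 5.50 ± 0.04, Btg2, an antiproliferative cofactor of mRNA deadenylation, by 4.37 ± 0.03, Csrnp1 by 4.24 ± 0.04, and Ier3 by 3.99 ± 0.04. Myc and Pim1, classical growth-response genes, did not pass the test, with values of 0.68 ± 0.20 and 0.63 ± 0.06. Of the KLF factors 8 of 12 were higher with a median of 0.78. Klf2 and Klf4 maintain the quiescent, flow-adapted state of endothelium, and both rose: Klf2 from 339, 356, and 347 CPM to 1085, 1093, and 1071 CPM, and Klf4 by 1.09 ± 0.03. Of the phosphatases and other inhibitors of MAP kinase signaling 7 of 16 were higher. They were led by Dusp1 (3.65 ± 0.03), Dusp5 (3.65 ± 0.12), and Dusp2 (3.56 ± 0.18), whereas the Sprouty and Spred genes of the list did not pass.

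**Figure D2:**
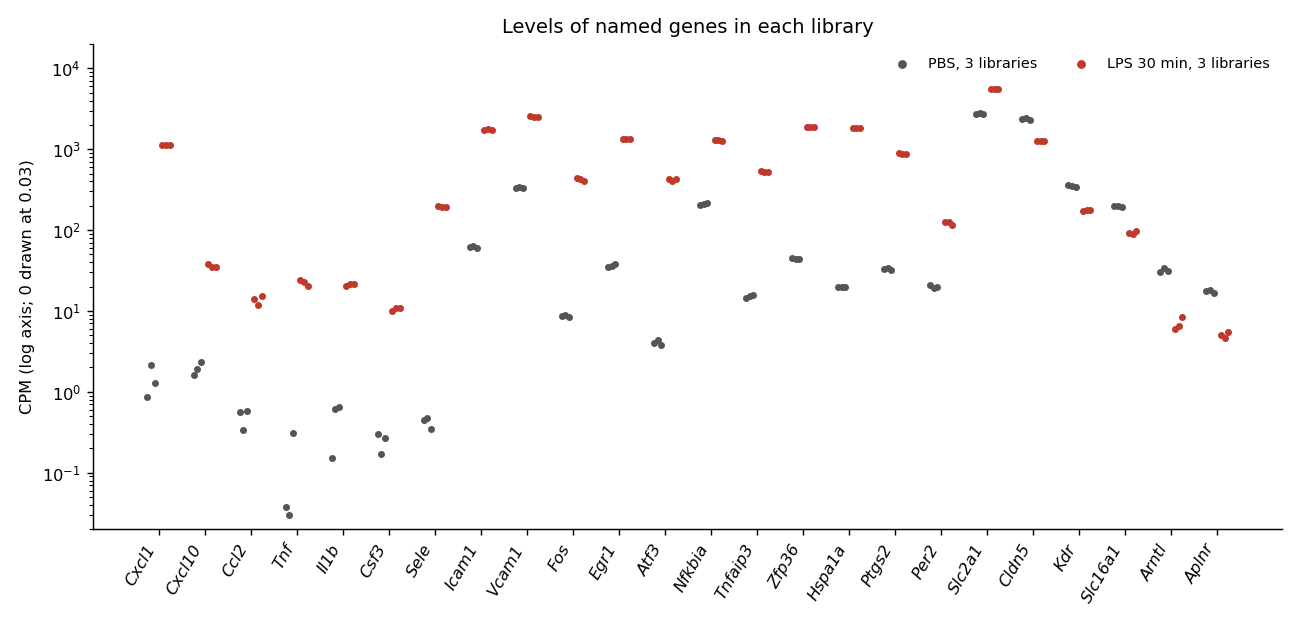
Points show the CPM of 24 named genes (x axis) in each of the 3 PBS (gray) and 3 LPS 30 min (red) libraries on a log axis, where a value of 0 is drawn at 0.03. For each of the 24 genes the LPS points lie wholly above or wholly below the PBS points.

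Within the NF-κB system the inhibitors and feedback genes were called in part. Of 16 tested 8 were called higher, with a median of 0.78 over the list. Nfkbiz, an atypical nuclear IκB protein that acts as a cofactor for secondary response genes, was at 15.5, 18.0, and 17.9 CPM in PBS and 699, 661, and 684 CPM at 30 min, a change of 5.31 ± 0.05. Tnfaip3, which encodes the ubiquitin-editing enzyme A20, was at 14.4, 15.1, and 15.8 CPM and 533, 516, and 521 CPM, a change of 5.11 ± 0.04. The groups did not overlap for either gene. Nfkbid rose by 4.03 ± 0.11, Nfkbia, the gene of IκBα, by 2.62 ± 0.02, and Bcl3 by 2.11 ± 0.09. Tnip1, Tnip2, Birc2, and Cyld did not pass, with log2 fold changes between -0.03 and 0.38. Of the 5 subunits, Rel changed most, by 2.69 ± 0.07, followed by Nfkb2 (1.12 ± 0.05), Rela (0.93 ± 0.03), and Relb (0.85 ± 0.05). Nfkb1, the precursor of p50, was at 0.06 ± 0.03 and did not pass.

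Of 22 genes of the TLR4 complex and its adaptors, 4 were called higher, and the median was 0.21. Cd14, the coreceptor that hands LPS to TLR4, rose from 4.38, 4.32, and 4.01 CPM to 76.7, 75.8, and 75.3 CPM, a change of 4.16 ± 0.09. Tlr4 itself was at 6.48, 5.36, and 5.65 CPM and 6.72, 7.01, and 7.82 CPM (0.30 ± 0.13) and did not pass, nor did Ly96, which encodes MD-2, or Myd88. The other rises were those of the kinases Map3k8 (1.47 ± 0.06), Ripk2 (1.19 ± 0.08), and Irak2 (0.96 ± 0.04). Among 12 regulators of mRNA decay 5 were higher. Zfp36, which encodes tristetraprolin, a protein that binds AU-rich elements of cytokine mRNAs, was at 44.8, 44.1, and 44.0 CPM and 1861, 1863, and 1898 CPM, a change of 5.40 ± 0.02 (adjusted p = 4.96e-32, edgeR). Zc3h12a, the gene of the ribonuclease Regnase-1, rose by 2.46 ± 0.07.

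The chemokines held the 2 largest rises of the ranking by size. Of 29 chemokines tested 10 were called, beside 4.62% of all genes tested. Of 12 CXC chemokines tested, 3 were higher and 1 lower. Cxcl1 (chromosome 5, 90891241 to 90893115, GRCm38), a neutrophil attractant acting on CXCR2, was at 0.862, 2.13, and 1.30 CPM in PBS and at 1124, 1120.2, and 1120.0 CPM at 30 min. Cxcl2, its neighbor on chromosome 5 (90903871 to 90905938) with the same receptor, was at 0.225, 0.304, and 0.115 CPM and 211, 205, and 199 CPM. Both were low in every PBS library and high in every LPS library, with log2 fold changes of 9.59 ± 0.14 and 9.84 ± 0.25. Cxcl10, an attractant of T cells that is induced by interferon and NF-κB, rose by 4.20 ± 0.09. Ppbp, a platelet chemokine, fell by 1.03 on the log2 scale, a call that was lost in DESeq2 (adjusted p = 0.091), in limma, and on leaving out PBS 1, PBS 2, or LPS 30 min 2 (adjusted p of 0.0521 to 0.095 in edgeR). Cxcl12, a homeostatic member, was at -0.30 ± 0.02 and did not pass. Of 17 CC and CX3C chemokines 6 were higher, among them the monocyte attractants Ccl2 (4.81 ± 0.24), Ccl12 (4.64 ± 0.23), and Ccl7 (4.46 ± 0.26). Ccl5 and Cx3cl1 did not pass, with -0.16 ± 0.29 and 0.34 ± 0.03.

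To show what lies at the start of the genes with the largest rises and of the IκBα gene, 4 promoters are printed from RefSeq (GRCm38.p6), each from 250 bases before to 50 bases after the annotated start, 5′ to 3′ on the strand of the gene. Capitals mark matches to a κB motif or to the AP-1 motif TGANTCA, searched on both strands, where the matches to κB overlap in Cxcl1 and Cxcl2.
Cxcl1, chr5:90890995-90891294, plus strand: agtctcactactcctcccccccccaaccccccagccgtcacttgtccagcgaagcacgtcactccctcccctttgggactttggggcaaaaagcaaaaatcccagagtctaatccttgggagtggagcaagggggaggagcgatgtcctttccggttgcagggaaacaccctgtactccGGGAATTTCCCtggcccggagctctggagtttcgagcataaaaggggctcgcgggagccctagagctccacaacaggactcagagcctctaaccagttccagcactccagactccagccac
Cxcl2, chr5:90903649-90903948, plus strand: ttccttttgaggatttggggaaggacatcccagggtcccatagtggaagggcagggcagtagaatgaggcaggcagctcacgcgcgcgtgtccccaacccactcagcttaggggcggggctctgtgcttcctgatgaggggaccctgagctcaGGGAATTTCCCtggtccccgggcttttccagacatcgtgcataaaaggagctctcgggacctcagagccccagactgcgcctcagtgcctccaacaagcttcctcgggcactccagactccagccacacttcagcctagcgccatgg
Sele, chr1:164047984-164048283, plus strand: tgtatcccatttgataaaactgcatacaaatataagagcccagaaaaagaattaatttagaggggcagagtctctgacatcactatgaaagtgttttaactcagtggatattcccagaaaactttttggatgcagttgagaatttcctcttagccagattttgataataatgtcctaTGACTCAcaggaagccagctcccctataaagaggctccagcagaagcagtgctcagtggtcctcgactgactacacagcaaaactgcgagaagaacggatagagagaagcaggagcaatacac
Nfkbia, chr12:55492598-55492897, minus strand: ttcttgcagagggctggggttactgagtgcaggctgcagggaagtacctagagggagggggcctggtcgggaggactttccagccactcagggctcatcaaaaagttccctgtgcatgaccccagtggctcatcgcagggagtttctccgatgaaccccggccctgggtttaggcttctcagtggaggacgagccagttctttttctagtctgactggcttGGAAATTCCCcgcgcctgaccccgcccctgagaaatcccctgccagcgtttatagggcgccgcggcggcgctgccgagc
In Cxcl1 the matches GGGAATTTCC and GGAATTTCCC span positions -71 to -61 from the start, and in Cxcl2 the same letters span -97 to -87. Nfkbia held GGAAATTCCC at -29 to -20. The Sele window held TGACTCA at -73 to -67 and no match to the κB letters searched. That search used a single strict pattern, with GGG at its start and CC at its end, on either strand. Looser κB sites were not searched, so a lack of κB sites in Sele is not shown. Of all 32851 promoters of the same length 8.46% held a κB match and 7.81% an AP-1 match. A match describes letters and not a bound site.

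Interleukins and colony-stimulating factors were called in part, most of them from very low levels. Of 16 tested, 8 were higher, with a median of 2.85. Il1b, a cytokine released after inflammasome cleavage, rose by 5.45 ± 0.26, and Csf3, the granulocyte colony-stimulating factor G-CSF, by 5.42 ± 0.22, from 0.300, 0.169, and 0.267 CPM to 10.1, 10.8, and 10.8 CPM. Il10 and Il6 had no count in any PBS library and 49 and 36 counts over the LPS libraries. Taking 3 counts over the PBS group as the floor, they were at least 19.6-fold and at least 14.4-fold higher. Csf1, the growth factor of macrophages and microglia, was well expressed at rest and rose from 82.4, 80.1, and 79.1 CPM to 635, 619, and 593 CPM (2.94 ± 0.03). Tnf was at 0.0375, 0, and 0.305 CPM in PBS and 23.9, 22.6, and 20.6 CPM at 30 min, a change of 7.61 ± 0.57 (adjusted p = 1.52e-15, edgeR). All 3 LPS libraries agreed within a narrow range, while the PBS level rests on 9 counts in all. Il15, Il18, and Il33 did not pass, with values of -0.31 ± 0.12, 0.09 ± 0.14, and -0.07 ± 0.11. Of the interleukin receptors 3 of 16 were higher, including Il1r1 (0.97 ± 0.03), which binds IL-1, and Osmr (0.93 ± 0.03), which binds oncostatin M. The TNF receptor genes Tnfrsf1a and Tnfrsf1b were at -0.17 ± 0.03 and 0.02 ± 0.05 and did not pass.

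Adhesion molecules of activated endothelium rose, and constitutive ones did not pass the test. Of 18 genes of the list 5 were higher and 1 lower, with a median of 0.00. Sele, the endothelial selectin that slows rolling leukocytes, was at 0.450, 0.472, and 0.344 CPM in PBS and 198, 195, and 193 CPM at 30 min (8.83 ± 0.18). Icam1, a ligand of the integrin LFA-1, was at 62.6, 63.0, and 60.1 CPM and 1752, 1769, and 1714 CPM (4.82 ± 0.03). Vcam1, a ligand of the integrin VLA-4, was at 331, 343, and 327 CPM and 2555, 2516, and 2506 CPM (2.92 ± 0.02). These levels separated the groups without overlap, from a starting point near 0 for Sele and from a substantial resting level for Vcam1. Pecam1, Icam2, Esam, and Jam2 lay between -0.18 and 0.13 and did not pass. Ch25h, which encodes the enzyme that makes 25-hydroxycholesterol, rose by 5.80 ± 0.07. Among the 9 markers of venous endothelium 5 were higher: besides Icam1 and Vcam1 these were Lcn2 (6.03 ± 0.09), Ackr1, a decoy chemokine receptor (3.95 ± 0.04), and Tmem252 (2.30 ± 0.02). The venous markers Nr2f2, Vwf, and Ctsc did not pass, and of the 9 arterial markers none was higher and 2, Vegfc and Alpl, were lower. Icam1, Vcam1, and Lcn2 stand on response lists as well, so the venous count is not independent of them.

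Genes of the interferon branch were called in part, beside 4.62% of all genes tested. Irf1, an immediate target of NF-κB, was the 1 of 9 interferon regulatory factors called, with 2.80 ± 0.03. Of 22 interferon-stimulated effector genes, 2 were higher and 1 lower, and the median was 0.19. Gbp5 and Ifitm1 rose by 1.15 ± 0.04 and 0.79 ± 0.05. Ifit2, Rsad2, and Mx1, which are strongly induced by type I interferon in many cells, were at -0.02 ± 0.07, -0.25 ± 0.05, and -0.27 ± 0.19 and did not pass. At 4 h the same genes stood at 6.79, 8.37, and 8.60 over PBS. Of 19 SOCS, STAT, and JAK genes 2 were higher, Socs3 (1.72 ± 0.07), the feedback inhibitor of IL-6 signaling, and Cish (0.83 ± 0.07), and no STAT gene passed.

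**Figure D3:**
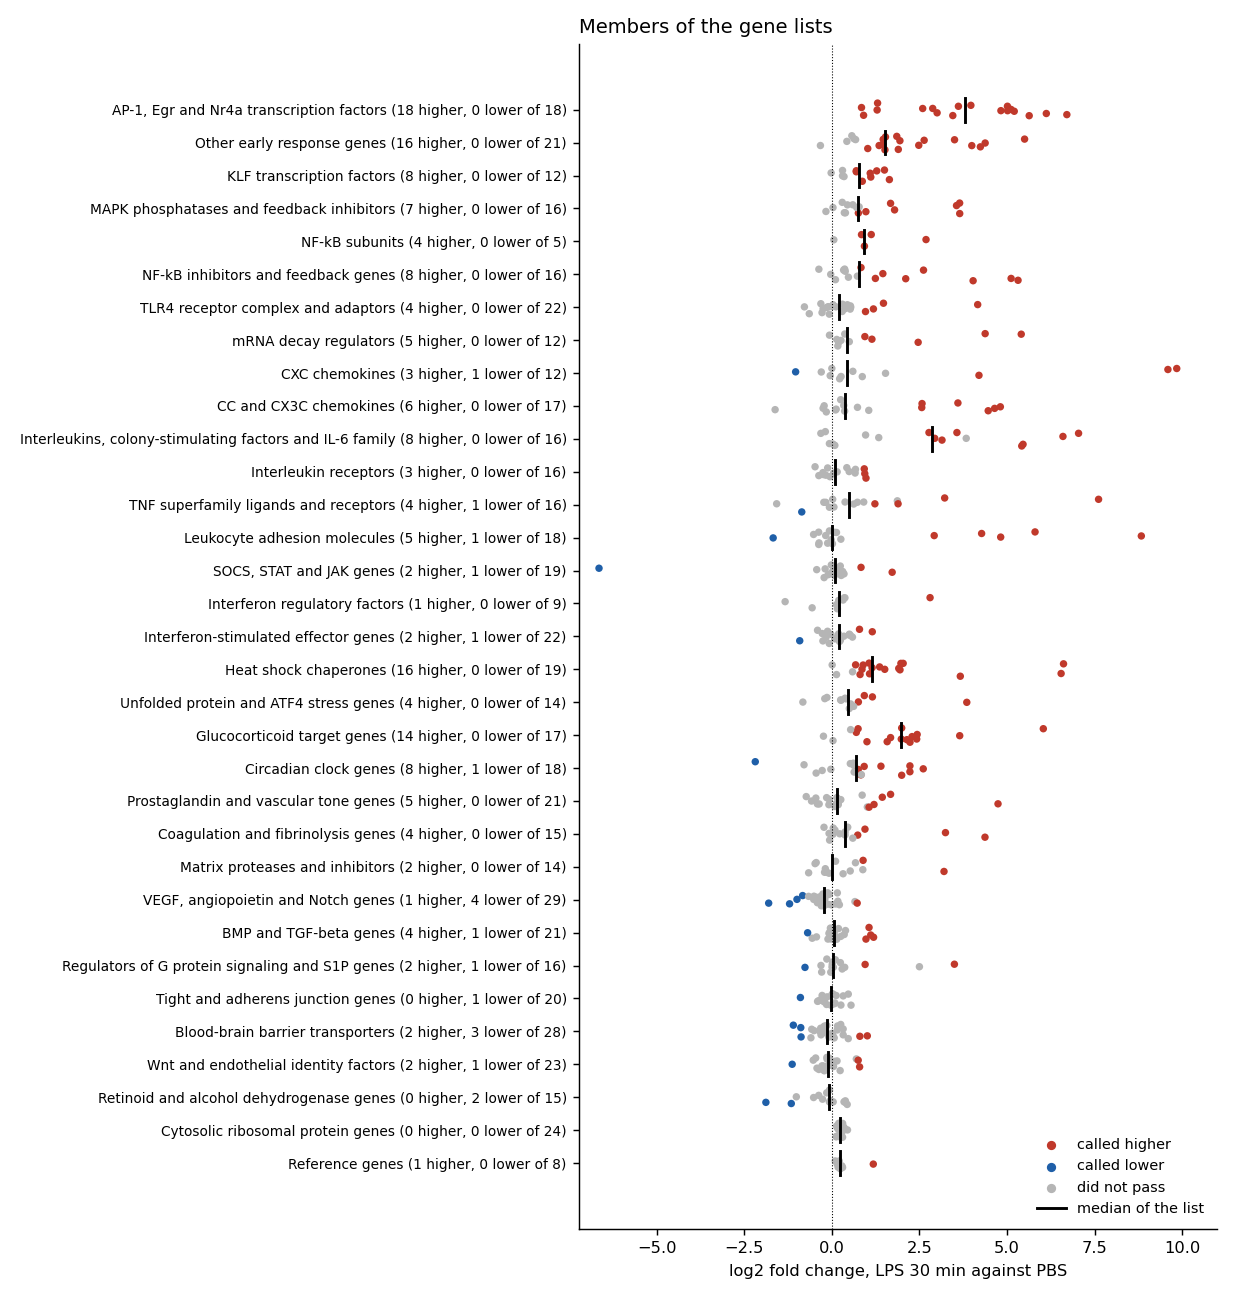
Each point is a tested gene of a list, with the log2 fold change of LPS 30 min over PBS on the x axis and the lists on the y axis. Red points were called higher and blue ones lower by edgeR, gray points did not pass, black bars mark the list median, and the AP-1, Egr, and Nr4a list lies entirely to the right of 0.

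Most heat shock chaperone genes were higher. Of 19 genes 16 were higher, with a median of 1.15, and 2 of these calls were lost with the whole reads recovered from the authors' gene table. There Hspa5, the chaperone BiP of the endoplasmic reticulum, and Chordc1, a cochaperone of HSP90, were at 0.61 and 0.74 with adjusted p of 1 and 0.126 in edgeR. Hspa1a, an inducible HSP70 gene, was at 19.9, 19.7, and 19.9 CPM in PBS and 1851, 1849, and 1834 CPM at 30 min (6.54 ± 0.05). Hspa1b, its near-identical neighbor, was at 13.7, 15.5, and 17.5 CPM and 1548, 1529, and 1485 CPM (6.61 ± 0.06). The division of fragments between these copies is uncertain, but both stood far apart between the groups. The cochaperone gene Dnajb1 rose by 3.66 ± 0.04 and the constitutive HSP70 gene Hspa8, abundant at rest, by 1.94 ± 0.02. Hsf1, the factor that drives these genes, was at 0.13 ± 0.05 and did not pass. Of 14 genes of the unfolded protein and ATF4 responses 4 were higher, led by Ppp1r15a (3.85 ± 0.06), the GADD34 subunit that reverses eIF2α phosphorylation. The ATF4 targets Asns and Chac1 were at -0.20 ± 0.12 and -0.14 ± 0.26 and did not pass.

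Genes known as targets of the glucocorticoid receptor were higher in 14 of 17, beside 3.8% of all genes tested, with a median of 1.98. The list overlaps the early response lists, since Dusp1, Klf9, Per1, and Errfi1 respond to other signals too. Its largest change, 6.03, is that of Lcn2, which is also counted among the venous markers. Fkbp5, a chaperone of the receptor and a standard readout of its activity, was at 18.8, 17.9, and 21.6 CPM in PBS and 105, 105, and 104 CPM at 30 min (2.43 ± 0.05). Tsc22d3, which encodes the glucocorticoid-induced leucine zipper, rose by 1.98 ± 0.03, Sgk1 by 2.14 ± 0.03, Cdkn1a by 2.42 ± 0.03, and the metallothionein gene Mt2 by 2.29 ± 0.03. At 15 min Fkbp5 and Tsc22d3 stood at 1.94 and 1.89 over PBS, and Mt2 at 0.37. Nr3c1, the gene of the receptor, was at -0.24 ± 0.04 and did not pass.

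Clock genes also differed between the groups. Of 18 genes 8 were higher and 1 lower, with a median of 0.69. Arntl, which encodes the activator BMAL1, was at 29.9, 33.6, and 31.6 CPM in PBS and 5.94, 6.54, and 8.49 CPM at 30 min and fell by 2.18 ± 0.11 on the log2 scale (adjusted p = 1.25e-11, edgeR). Per2, a repressor of the clock, was at 21.1, 19.3, and 20.0 CPM and 125, 127, and 116 CPM (2.61 ± 0.06). Arntl was lower and Per2 higher in each of the LPS libraries than in any PBS library. Per1 rose by 1.99 ± 0.03, Bhlhe40 by 2.23 ± 0.03, and Ciart by 2.23 ± 0.08. At 15 min Arntl and Per2 stood at -1.63 and 2.54 over PBS, and at 4 h at 0.13 and -0.04. Since the time of day of sampling is not given, an effect of the hour and an effect of LPS cannot be told apart for these genes.

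Genes of prostaglandin synthesis, fibrinolysis, and matrix turnover changed in single members. Ptgs2, the gene of the inducible cyclooxygenase COX-2, was at 32.9, 33.5, and 32.4 CPM in PBS and 908, 873, and 863 CPM at 30 min (4.74 ± 0.03), and Ptges, the prostaglandin E synthase gene, was higher too. They were among 5 of 21 genes of prostaglandin synthesis and vascular tone called higher. Nos3, the endothelial nitric oxide synthase gene, and Edn1, the endothelin gene, were at 0.09 ± 0.03 and 0.18 ± 0.03 and did not pass. Of 15 genes of coagulation and fibrinolysis 4 were higher, led by Plaur (4.37 ± 0.06), the urokinase receptor. F3 and Thbd, the genes of tissue factor and thrombomodulin, did not pass. Of 14 matrix proteases and inhibitors 2 were higher, the protease gene Adamts1 (3.20 ± 0.02) and the inhibitor gene Timp3 (0.89 ± 0.02), while Mmp2, Mmp9, and Mmp14 did not pass. Rgs16, which shortens G protein signaling, rose by 3.50 ± 0.05, and S1pr1, the sphingosine-1-phosphate receptor that stabilizes junctions, by 0.95 ± 0.03.

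The falls included receptors and membrane proteins of the endothelium. Aplnr, the apelin receptor of venous and sprouting endothelium, was at 17.8, 18.0, and 16.8 CPM in PBS and 5.03, 4.60, and 5.45 CPM at 30 min (-1.80 ± 0.14). Myct1, an endothelial membrane protein, was at 33.2, 33.8, and 33.7 CPM and 11.1, 11.3, and 12.6 CPM (-1.52 ± 0.09). Kdr, the main VEGF receptor, was at 358, 351, and 345 CPM and 174, 177, and 179 CPM (-0.99 ± 0.03). In each case every LPS library was below every PBS library. Of 29 genes of the VEGF, angiopoietin, and Notch systems 4 were lower, with a median of -0.23. The others were Heyl (-1.21 ± 0.07), a Notch target, and Vegfc (-0.83 ± 0.06), while the Notch ligand gene Dll4 rose by 0.72 ± 0.04. Flt1, Tie1, and Notch1 did not pass. Adh1, an alcohol dehydrogenase that oxidizes retinol, was at 18.1, 17.7, and 15.1 CPM and 4.25, 4.82, and 4.74 CPM (-1.88 ± 0.13), and Cyp26b1, which degrades retinoic acid, fell by 1.16 on the log2 scale. They were the 2 of 15 retinoid genes that were called.

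Most barrier genes did not pass the test. Among 20 genes of tight and adherens junctions 1 was called, a share near the 4.62% of all genes tested. It was Cldn5, the gene of the main claudin of the blood-brain barrier, at 2332, 2442, and 2310.2 CPM in PBS and 1267, 1267, and 1273 CPM at 30 min, which fell by 0.90 ± 0.02 on the log2 scale (adjusted p = 3.44e-12, edgeR). Ocln, Tjp1, and Cdh5 were at 0.03 ± 0.03, -0.13 ± 0.02, and -0.28 ± 0.02 and did not pass. Of 28 transporter genes 2 were higher and 3 lower, a larger share than the 4.62% of all genes tested, with a median of -0.15. Slc2a1, the gene of the glucose transporter GLUT1, was at 2730.1, 2788, and 2686 CPM and 5500.0, 5506, and 5538 CPM (1.01 ± 0.02). Slc16a1, the gene of the monocarboxylate transporter MCT1, was at 197, 199, and 195 CPM and 91.0, 88.2, and 97.4 CPM (-1.10 ± 0.03). The glucose and the lactate carrier thus moved in opposite directions, each without overlap between the groups. Mfsd2a, the lysolipid transporter that limits transcytosis, rose by 0.80 ± 0.03, and Slc40a1, the iron exporter ferroportin, fell by 0.89 on the log2 scale. The call of Slc6a12 as lower was lost in DESeq2 (adjusted p = 0.097), in limma, and on leaving out any library but LPS 30 min 2. At 4 h Cldn5 stood at -2.31, Slc2a1 at -1.05, and Mfsd2a at -1.92 over PBS. Of 23 factors of Wnt signaling and endothelial identity 2 were higher and 1 lower: Sox7 (0.79 ± 0.05) and Fzd4 (0.75 ± 0.03) rose, and Lef1 and Erg did not pass.

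The change at 30 min was set beside those at 15 min and 4 h. Between 30 and 15 min edgeR called 911 genes (4.76%), and between 4 h and 30 min 5530 genes (28.9%). The 3 comparisons with PBS share its libraries, so values are given side by side and the direct contrasts carry the tests. Of the 22 genes with the largest changes at 30 min, all 12 rises and Xist passed the test against 15 min, and the other 9 falls did not. The ranking used the same 30 min libraries, which favors a difference from 15 min, so these counts are descriptions. Sele stood at 3.64 at 15 min, 8.83 at 30 min, and 9.96 at 4 h over PBS. Lcn2 stood at 1.90, 6.03, and 10.70. Hspa1b stood at 4.40, 6.61, and 1.44, lower at 4 h than at 30 min by 5.17. Between 30 min and 4 h Sele and Lcn2 rose further, by 1.13 and 4.67, whereas Hspa1b was highest at 30 min among the times sampled. Tnf was level between 30 min and 4 h, with a difference of 0.24 and an adjusted p of 1 in edgeR, which does not show equality. Icam1 stood at 1.36 and Vcam1 at 0.30 at 15 min, and both rose between 15 and 30 min, by 3.45 and 2.62. Csf3, at -1.22 at 15 min, rose by 6.64 over the same interval. For Arntl, Per2, Cldn5, and Slc2a1 the values at 30 and 15 min differed by -0.56, 0.07, -0.16, and 0.31 and did not pass this test, whereas between 30 min and 4 h each of the 4 did.

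**Figure D4:**
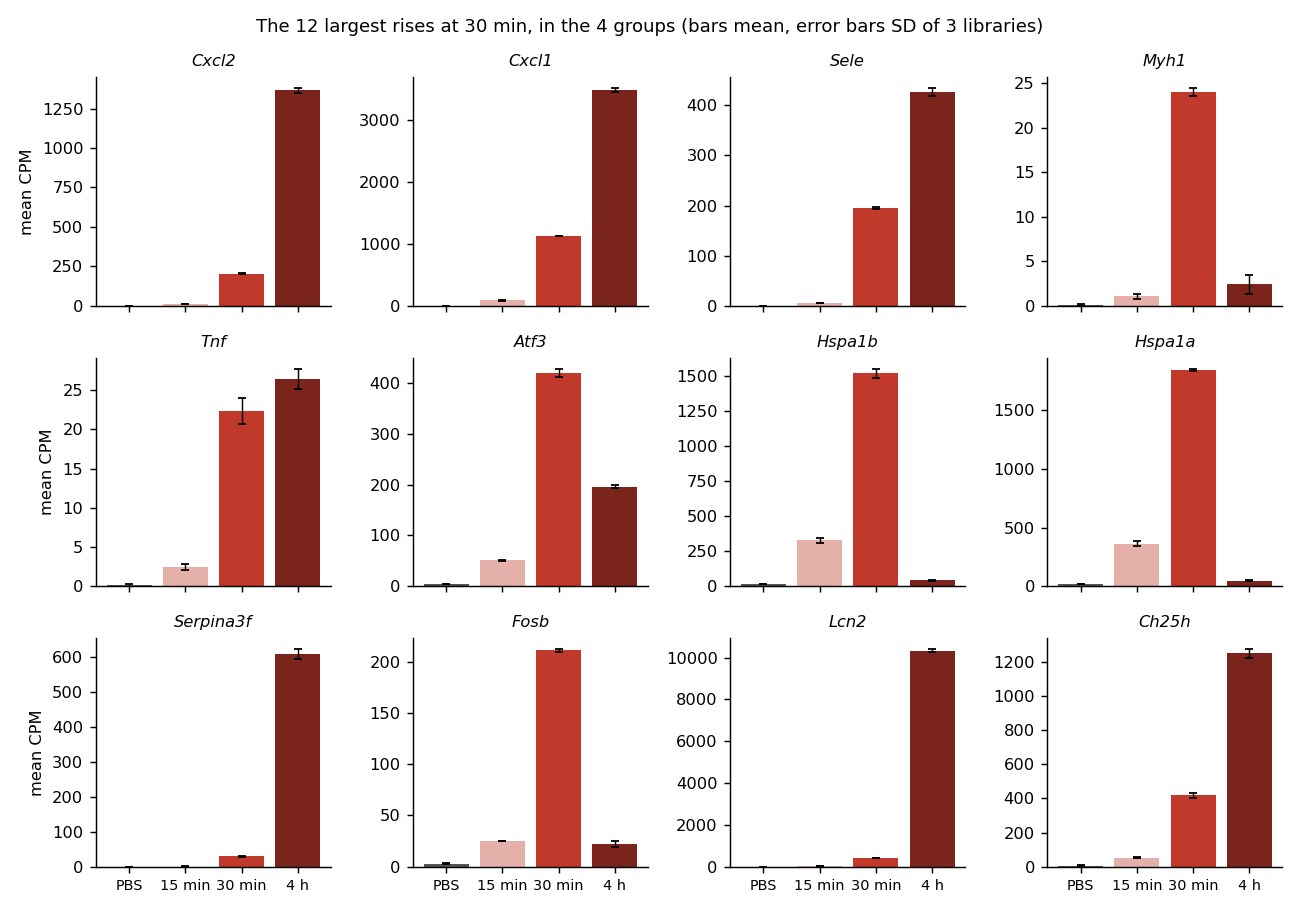
Each panel is 1 of the 12 genes with the largest rises, with the mean CPM of PBS and of the 3 times after LPS as bars (linear axis from 0, a scale of its own in each panel) and the SD of 3 libraries as error bars. Hspa1a, Hspa1b, Fosb, Atf3, and Myh1 are highest at 30 min, while Cxcl2, Cxcl1, Sele, Serpina3f, Lcn2, and Ch25h are highest at 4 h.

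Markers of vascular cells and glia were called in some lists and not in others, beside 4.62% called over all genes tested. None of 10 pericyte, 10 smooth muscle, 11 neuron, or 10 oligodendrocyte markers was called, and the medians of these lists lay between -0.31 and 0.09. Of 12 endothelial markers Kdr and Cldn5 were lower, and Pecam1, Cdh5, Tie1, and Flt1 did not pass. The venous and arterial lists, with 5 and 2 of 9 called, are given above with the adhesion molecules. Of 10 astrocyte markers 2 were higher, Gja1, the gene of connexin 43 (0.71 ± 0.04), and Aqp4. Both calls depend on the table tested. The Gja1 call was also lost in DESeq2 (adjusted p = 0.0637), in limma, and on leaving out LPS 30 min 2. Gfap, Slc1a2, and Aldh1l1 did not pass. Of 14 microglia markers Cx3cr1, the fractalkine receptor, was lower, from 12.3, 13.3, and 10.5 CPM to 5.29, 5.47, and 4.83 CPM, and P2ry12 and Tmem119 did not pass. In contrast, 13 of 15 skeletal muscle markers were higher, with a median of 3.76. Myh1, a myosin of fast muscle fibers, was at 0.187, 0, and 0.0763 CPM in PBS and 24.0, 23.6, and 24.4 CPM at 30 min, and Ckm, muscle creatine kinase, rose by 4.27 ± 0.15. At 15 min Ckm stood at 0.28 and at 4 h at 1.65. The globin genes Hba-a1, Hba-a2, Hbb-bs, and Hbb-bt rose by 0.84 to 1.07. Among markers of choroid plexus and ependyma Ttr was at 0.39 ± 0.02 and did not pass, whereas Foxj1, the master regulator of motile cilia, rose by 1.42 ± 0.04. The part of tissue carried along with the vessels in these values was not tested.

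**Figure D5:**
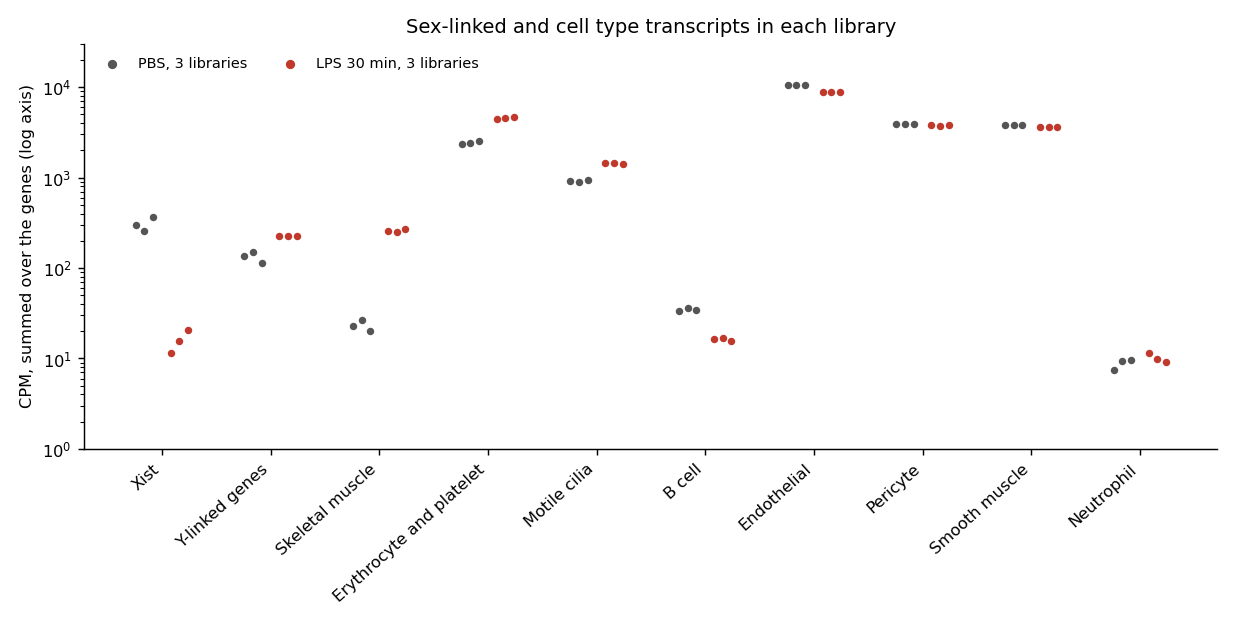
Points show Xist and the summed level of marker lists (CPM, log axis) in each PBS (gray) and LPS 30 min (red) library. They include motile cilia genes, picked by symbol, and B cell genes, both chosen after their values were seen. The skeletal muscle sum is 20.1 to 26.4 CPM in PBS and 253 to 271 CPM at 30 min, and the neutrophil sums of the groups lie between 7.53 and 11.4 CPM.

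Reference genes set the scale for small changes. The 24 ribosomal protein genes lay between 0.12 and 0.45, with a median of 0.24, and none was called. Gapdh, Hprt, Tbp, and Ppia lay between 0.10 and 0.29 and did not pass, while Actb, often used as a reference, rose by 1.18 ± 0.02.

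Some calls depend on how transcript estimates were turned into gene counts. The reads recovered from the authors' table were closer to counts scaled by transcript length than to the summed counts tested here. Of 16548 genes, 201 lay more than 0.1 on the log2 scale from the former in some library, and 8774 from the latter. The authors' gene table, turned back into whole reads, gave 634 higher and 119 lower genes, and 711 of the 884 calls were among them. Aqp4, an astrocyte water channel called at 2.65 ± 0.64, was at 0.26 with that table. Its summed counts were 246 over the PBS group, while the recovered reads were 1506, 1681, and 1467 in the PBS libraries. Selp, the platelet and endothelial selectin called at 4.27 ± 0.23, was at 2.20 with an adjusted p of 0.0711 in edgeR. Fosl1 (3.97 ± 0.65) and Lyl1 (-1.13 ± 0.10) were at 2.63 and -0.78 and not called either. Socs7, called lower at -6.64, was at 0.25 with the table, and its libraries overlapped (0.150, 26.1, and 9.89 CPM in PBS, 0, 0.215, and 0.134 CPM at 30 min), so its call is not read as a fall. Irak2, Gja1, and Dll4 also lost their calls, with adjusted p of 0.128, 0.0732, and 0.0516 in edgeR. With library totals alone Relb, Cish, Ifitm1, Sox7, Fzd4, and Gja1 did not pass, with adjusted p of 0.12 to 1 in edgeR.

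The median genomic span was 19.0 kb over all genes tested, 13.3 kb for the rises, and 11.8 kb for the falls, and the median number of exons, after merging those of all transcripts, was 8, 7, and 5. Among protein-coding genes the order of rises and falls turned for span, with 24.0 kb over all tested, 15.0 kb for the rises, and 17.6 kb for the falls. For exons the order stayed the same, with 9, 8, and 6.5. This is a description with no test. Transcripts annotated as retaining an intron held 5.16% to 5.18% of fragments in PBS and 4.76% to 4.81% at 30 min, a difference of -0.377 points (exact two-sided permutation test, p = 0.1, the smallest that 3 against 3 libraries allow). As a share of TPM, which corrects for transcript length, the difference was -0.922 points, from 6.59% to 6.68% in PBS to 5.67% to 5.77% at 30 min. The libraries taken at 15 min lay above PBS, the lowest of them at 5.98% of fragments. The share moved in both directions in single genes. In Egr3 it went from 84.2% of fragments in PBS to 32.9% at 30 min and in Dusp1 from 19.3% to 11.8%, while in Lcn2 it went from 1.62% to 8.52% and in Tnfaip3 from 6.29% to 11.1%. The groups did not overlap for these 4 genes, which were chosen after their values were seen. For Tnfaip3 the gap was narrow, with 10.63%, 4.14%, and 4.61% in PBS and 11.13%, 10.74%, and 11.29% at 30 min. The Lcn2 share in PBS rests on 511 fragments of that gene. Over the 237 rising genes with at least 150 fragments per group the median difference was 0.017 points, with 35 genes higher and 30 lower without overlap. Over all 7838 genes with as many fragments the median was -0.068 points, with 549 higher and 943 lower without overlap.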

How the data were processed

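RNA of cerebral vessels was measured in 12 libraries by SMART-Seq v4 cDNA amplification, Nextera XT tagmentation, and paired-end sequencing. The authors ran Salmon 1.2.1 against GRCm38.p6, and the deposited estimated counts are the fragments assigned to each transcript, not normalized. The deposited TPM values were scaled by the authors' Salmon run for transcript length and library. The deposited gene table is a normalized signal that the authors obtained with tximport and DESeq2. Of its nonzero values 100% are whole multiples of 1 read per library (tolerance 0.01 read), and the recovered reads gave 634 higher and 119 lower genes in edgeR, a fit added after seeing the data.

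Estimated counts were summed to 54119 genes of GENCODE M21 (GRCm38) and rounded. Of 140948 transcripts 1096, with 0.482% to 0.850% of fragments, did not join and were left out. Genes were kept by filterByExpr (minimum count 10, total 15, share 0.7). All 12 libraries entered a quasi-likelihood fit in edgeR 4.0.16 (R 4.3.3), grouped by their labels, with glmTreat against 0.58 on the log2 scale and Benjamini-Hochberg adjustment over 19150 genes. The SE comes from the fitted means and the estimated dispersions. The fit had a common biological coefficient of variation of 0.0524. The mean TMM factor was 1.17 in PBS and 1.04 at LPS 30 min. Folds against groups without counts use a floor of 3 counts. On simulated data of 18717 genes for LPS 30 min against PBS, 72.5% of 200 changed genes were called and 1 unchanged gene was.

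The lists, the groups compared, and the rule for named genes were chosen with earlier results of these data known. The rule allows every list member, describes up to 4 called members of a list per library, and adds the 12 largest rises and 10 largest falls that passed the test, had no overlap between the groups, and averaged at least 50 counts. Alternatives were DESeq2 1.42.0 with a local dispersion trend, RLE factors, library size only, no filter, no fold limit, a length offset, a fit to the 2 groups, a block for the library number, limma 3.58.1 on the gene table, and leaving out each library. Promoters came from RefSeq. Of the genes called higher 71.6% and of those called lower 64.1% had an entry, under the limit of 80%, so a comparison of motif shares between gene sets is void and was not made. Tables were handled in Python 3.11.15.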

Additional observations from a re-analysis of the deposited data

Results flagged for a closer look

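For 13 of the 22 genes with the largest changes, the change at 30 min differed from the change at 15 min in edgeR's test of the difference itself. Of all genes tested 4.76% did. The PBS libraries cancel in this test, but the 30 min libraries were also used to rank the 22 genes. That choice favors a difference from 15 min, so the count of 13 is a description. On the log2 scale the differences of the rises were 5.23 for Serpina3f, 5.19 for Sele, 4.49 for Myh1, 4.14 for Lcn2, 4.11 for Cxcl2, 3.67 for Cxcl1, 3.18 for Tnf, 3.07 for Fosb, 3.04 for Atf3, 2.96 for Ch25h, 2.35 for Hspa1a, and 2.21 for Hspa1b. Serpina3f encodes a serine protease inhibitor of the acute-phase family, and Lcn2 encodes lipocalin 2, which binds bacterial siderophores. Myh1 is a skeletal muscle gene and moved with the other muscle markers. Xist differed by -2.16 (adjusted p = 0.000275, edgeR). It was the 1 fall of the ranking that passed, in libraries that all carry the label of pooled sexes.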

How the results depend on the processing

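For the counts of genes higher and lower (728 and 156), RLE factors, no filter, the length offset, the fit to the 2 groups, and the recovered reads stayed within 1.5 times. DESeq2 gave 95 lower and library size only 350 lower. The local dispersion trend of DESeq2 was set after seeing the data, because the default trend, which called fewer genes, converged with 1 thread and not with several. Without a fold limit the counts were 3771 higher and 3295 lower, with 13 NF-κB feedback genes, 16 chemokines, 11 adhesion molecules, 35 barrier genes, and 17 clock genes called. limma on the gene table gave 480 higher and 56 lower with a pseudocount of 1, and 449 and 54 with 10. Leaving out 1 library gave 667 to 697 higher and 118 to 138 lower, 18 of 18 early response factors, 7 to 8 feedback genes, 9 to 11 chemokines, 5 to 6 adhesion molecules, 5 to 6 barrier genes, and 9 clock genes. In protein-coding genes the median span was 15.0 kb for rises and 17.6 kb for falls, with 8 and 6.5 exons. Of 163 named genes 136 were called, 108 of them under every alternative. Of 2768 values 117 lost their call, 17 gained one, and 3 reversed. The reversals were all of Socs7, at 0.23 in both limma fits (0.234 and 0.233) and 0.25 with recovered reads. The cause was not tested. A fit with the library number as replicate block gave 722 higher and 147 lower. Libraries that share a number had deviations from their group means correlated at 0.049, -0.026, and 0.021, so the numbers were not taken as pairs. Low counts limit genes such as Il10, Il6, and Prl, which had no count in a group.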

Other observations

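The groups and genes given here were chosen after their values were seen, and no set was tested. Over all genes tested 3.8% were higher and 0.815% lower. Apold1, an early gene of endothelial cells, was at 39.7, 43.6, and 40.5 CPM in PBS and 1142, 1130.1, and 1114 CPM at 30 min (4.77 ± 0.03). Rnd1, a small GTPase that loosens actin fibers, rose by 4.76 ± 0.04, and the kinase gene Nuak2 rose by 4.68 ± 0.08. These 3 genes had no overlap between the groups. Of the C/EBP family, factors of the acute-phase response, 3 of 5 were higher: Cebpd from 31.3, 30.5, and 32.6 CPM to 377, 380.5, and 381 CPM, Cebpb by 3.05 ± 0.05, and Cebpg by 0.80 ± 0.04. All 5 tested genes of the Serpina3 cluster, near-identical copies between which fragments are hard to divide, were higher, and their summed level was 6.86 to 8.02 CPM in PBS and 66.8 to 73.2 CPM at 30 min. Nlrp3, the sensor of the inflammasome that matures IL-1β, rose by 2.42 ± 0.20, and Lrg1, a secreted glycoprotein of the acute phase, by 2.23 ± 0.07.

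Among falls outside the lists, Cirbp, which encodes the cold-inducible RNA-binding protein, was at 106, 117, and 107 CPM in PBS and 40.0, 44.4, and 42.5 CPM at 30 min (-1.38 ± 0.05). Clec14a, an endothelial C-type lectin, fell by 1.25 on the log2 scale, and Efna1, an ephrin ligand, by 1.12. Every LPS library was below every PBS library for these 3 genes.

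Transcripts of other cell types and tissues also separated the groups, beside 3.8% higher and 0.815% lower over all genes tested. Of 59 tested genes picked by their symbols for motile cilia, 34 were higher and none lower, with a median of 0.98. Their summed level was 900.0 to 943 CPM in PBS and 1419 to 1435 CPM at 30 min. The pick by symbol took in Spag5, Spag7, and Spag9, none of which was called. Spag9 alone held 204, 212, and 205 CPM of the sum in the PBS libraries. Of 15 B cell genes 7 were lower, among them Ighm, Ighd, and Cd79b, with a summed level of 33.8 to 36.4 CPM and 15.5 to 16.9 CPM. The nasal mucosa genes summed to 1.32 to 1.57 CPM in PBS and 11.7 to 18.0 CPM at 30 min. The pituitary hormone gene Prl was at 1.27, 1.69, and 2.33 CPM in PBS and at 0 in each LPS library, and Gh and Cga were lower too. The other 4 of the 7 pituitary genes, Pou1f1, Lhb, Tshb, and Pomc, lay between -0.11 and 0.49 and did not pass, and the summed level of the 7 overlapped, with 22.9 to 24.5 CPM in PBS and 21.3 to 23.9 CPM at 30 min. How these transcripts came into the libraries was not tested.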
